A study of Rattus norvegicus with 20 samples.

Results

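Bilirubin is made from heme, is conjugated by enzymes in liver and leaves cells through pumps. In the hippocampus of the Gunn rat, 7 genes linked to these steps were followed: Hmox1, Hmox2, Blvra, Blvrb, Ugt1a5, Abcc1 and Abcb1a. They were taken by symbol from a table of 32883 genes, and the list was drawn up with earlier results of these data known. The Gunn rat carries a recessive defect of bilirubin conjugation. Homozygous jaundiced pups (jj, strain Gunn rat) were compared with non-jaundiced controls (Nj, entered as heterozygous Jj in the sample labels, so the controls carry 1 copy of the mutant allele). Pups of each genotype were either left untreated or given phototherapy (PT), which is intermittent LED light begun on postnatal day 4 that reached 12 h by postnatal day 6, switched on for 3 h and off for 3 h. PolyA RNA of 1 hippocampal lobe was sequenced at postnatal day 6, with 5 libraries in each of 4 groups (20 in all). The p-values measure the spread between these libraries, and whether the libraries of a group came from separate litters was not stated.

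Heme oxygenases open the heme ring and release biliverdin, carbon monoxide and iron. Hmox1 encodes the stress-inducible enzyme and Hmox2 the constitutive enzyme, which is abundant in neurons. Biliverdin reductase, encoded in adult tissue mainly by Blvra, turns biliverdin into bilirubin, and Blvrb encodes another enzyme named a biliverdin reductase. UDP-glucuronosyltransferases of the Ugt1a locus attach glucuronic acid in liver, and the Gunn allele disrupts an exon that all Ugt1a transcripts share. Abcc1 encodes the export pump MRP1, found among other places in choroid plexus epithelium, and Abcb1a encodes P-glycoprotein, the export pump of brain capillary endothelium.

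Counted reads per library ran from 16882652 to 27112749. All 7 genes passed the filter on low counts, as did 15272 genes in all. Hippocampal identity was checked with a list of 12 neuronal markers, all of which passed the filter, with summed levels between 2594 and 3171 CPM (counts scaled to a common library size) in every library. Choroid plexus RNA varied widely: Ttr, its most abundant transcript, was above 1000 CPM in 1 library of each untreated group, 2 of treated Nj pups and 3 of treated jj pups. Fits without these libraries rest on fewer libraries, fewest in treated jj pups. In such fits, lower power and less choroid plexus RNA cannot be told apart. The title prefixes of the libraries, whose meaning was not stated, follow the groups. Both treated groups share 1 prefix and untreated jj pups have another, while untreated Nj pups span 3. Prefix and group therefore cannot be told apart except between the treated groups. In whole-tissue RNA, fewer cells of a type and less RNA per cell cannot be told apart.

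None of the 7 genes changed in any comparison at a Benjamini-Hochberg adjusted p under 0.05 in edgeR's quasi-likelihood test, which was fitted on all 15272 genes and all 20 libraries. Between genotypes the share of all genes called was 0% in untreated pups, 0% in treated pups and 0% for the mean over both treatments, where DESeq2 called 1, 2 and 0 genes. Light, by contrast, was followed by calls in 4% of all genes in Nj, in 0.164% in jj and in 10.1% for the mean over both genotypes. These counts of 611, 25 and 1541 genes moved with single libraries. Light in Nj gave 152 calls without untreated Nj library 4, 159 without untreated Nj library 5, 272 without treated Nj library 2 and 253 without treated Nj library 5. The mean gave 1020 without untreated Nj library 4. Light in jj gave 0 without untreated jj library 4 or treated jj libraries 2, 3 or 5, 5 without treated jj library 4, 16 and 39 without untreated jj libraries 1 and 3, and 43 without treated jj library 1. Without adjustment, 4 of the 7 genes had p under 0.05 for the mean effect of light, against 24.6% of all genes, and 1 did for the mean effect of genotype, against 11.2%. In the 4 comparisons of 2 groups the unadjusted counts were 1 in untreated pups (6.36% of all genes), 1 in treated pups (6.62%), 1 for light in Nj (18.1%) and 1 for light in jj (13%). DESeq2 called 1 of the 7 genes for the mean effect of light and 0 in the other comparisons, but its own filter left Ugt1a5 untested for light in jj and for the mean effect of genotype. The 95% intervals of the 7 genes in the comparisons of 2 groups lay between 0.55- and 1.65-fold. Comparisons that use the same group share its 5 libraries.

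**Figure D1:**
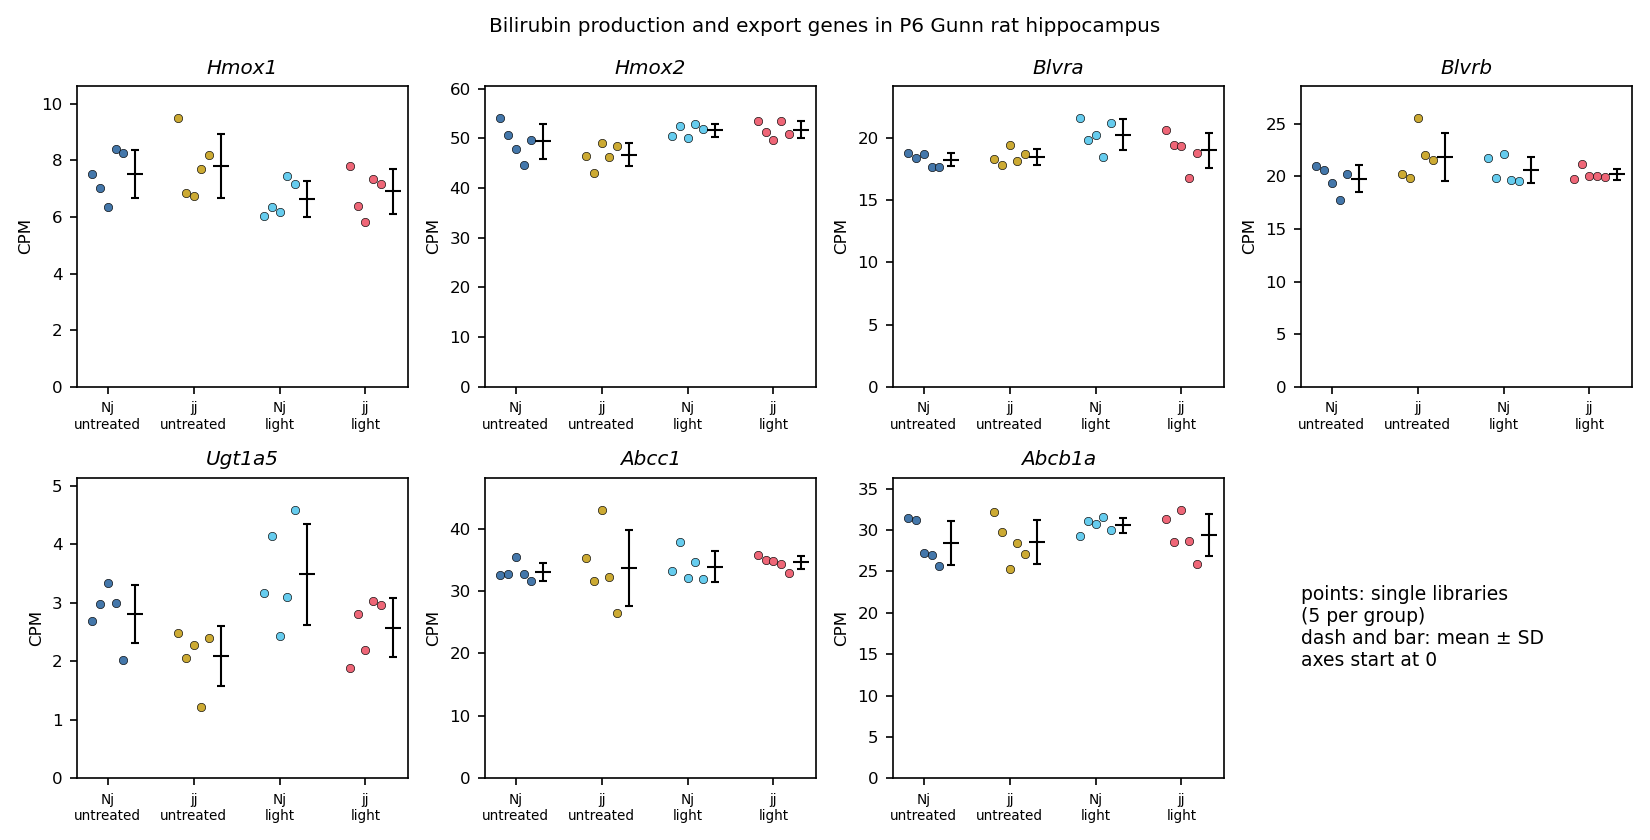
Level of each of the 7 genes in CPM (linear axes starting at 0) in the 4 groups; points are single libraries, dashes and bars mean ± SD of 5. Ugt1a5 sits lowest in untreated jj pups (mean 2.09 CPM) and highest in treated Nj pups (3.49 CPM), and Hmox2 of all 5 treated jj libraries lies above all 5 untreated jj libraries.

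Hmox2 came closest to a call. In untreated jj pups its level in libraries 1 to 5 was 46.5, 43.1, 49.0, 46.3 and 48.4 CPM (CPM here uses the library size after TMM scaling, and levels are compared between libraries and not between genes). In treated jj pups it was 53.6, 51.2, 49.7, 53.4 and 50.9 CPM. Every treated jj library was above every untreated jj library, a separation without overlap that 2.96% of all genes showed in this comparison. The means were 46.7 ± 2.32 and 51.7 ± 1.69 CPM (SD, n = 5 each), a log2 difference of 0.15 (standard error 0.05, 95% interval 0.05 to 0.25), with an edgeR adjusted p of 0.18.

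In Nj pups the Hmox2 ranges overlapped, as did those of the other 6 genes, while 6.46% of all genes had ranges that did not overlap there. Untreated Nj libraries held 54.0, 50.8, 47.9, 44.6 and 49.7 CPM and treated Nj libraries 50.4, 52.6, 50.02, 53.0 and 51.9 CPM. Untreated Nj library 1 was the highest of all 20 libraries, and untreated Nj libraries spread most (SD 3.50 CPM against 1.31 in treated Nj pups). The log2 difference with light in Nj was 0.06 (standard error 0.05, adjusted p = 0.55 in edgeR). The difference between the light effects of the genotypes was 0.09 on the log2 scale (standard error 0.07, edgeR adjusted p = 1), and 0% of all genes were called in that interaction. Of the 7 genes 0 reached an unadjusted p under 0.05 for it, against 3.41% of all genes.

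Averaged over genotypes, Hmox2 was 1.02- to 1.13-fold higher with light (95% interval; log2 0.10, standard error 0.03), with an edgeR adjusted p of 0.0525, just above the threshold. Of the 10 untreated libraries, 7 were below the lowest treated library (49.7 CPM) and 1 was above the highest. The call changed with the settings. Adjusted p fell to 0.0413 with the size factors of DESeq2, to 0.0247 with DESeq2's Wald test, to 0.0101 with untreated Nj libraries of prefix J15 alone and to 0.0422 with Y-linked expression as a covariate. It was 0.0766 with Ttr as a covariate, 0.0924 without a count filter and 0.261 without the 7 libraries rich in Ttr, where the log2 difference was 0.10. Leaving out each library in turn gave 7 calls in 20 fits (without untreated Nj 1 or 2, untreated jj 3 or 5, treated Nj 1 or 3, or treated jj 3).

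Several marker lists had higher sums in treated pups, and others had lower ones. The meninges list averaged 704 CPM in untreated and 617 CPM in treated Nj pups, and 882 and 649 CPM in jj pups. Means of the endothelial, border macrophage and red blood cell lists were also lower with light in both genotypes. The ranges of these lower lists overlapped. The summed neuronal list spanned 2594 to 2987 CPM in untreated and 2943 to 3171 CPM in treated Nj pups, and 2619 to 2922 CPM in untreated and 2939 to 3169 CPM in treated jj pups. For the mean effect of light, 3 of its 12 genes were higher and 1 lower at an adjusted p under 0.05, where 10.1% of all genes were called. Of the astrocyte list, 3 of 8 genes were higher and 1 lower, and its sum averaged 2637 CPM in untreated and 2893 CPM in treated Nj pups, and 2694 and 2922 CPM in jj pups. Of the microglia and macrophage list, 3 of 11 genes were higher and 0 lower, and its sum averaged 148 CPM in untreated and 168 CPM in treated Nj pups, and 165 and 177 CPM in jj pups. No defining marker of the neuronal or astrocyte list was at 0. Over the 20 libraries Hmox2 had a Pearson r of 0.63 with the neuronal sum, 0.34 with the astrocyte sum and 0.28 with the microglia and macrophage sum. After each group's mean was taken out, these were 0.35, -0.05 and 0.15. The part of these cell types in the Hmox2 difference was not tested.

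Hmox1, the inducible enzyme, was no higher in jaundiced pups beyond its spread. Untreated Nj libraries held 7.50, 7.01, 6.36, 8.40 and 8.25 CPM, and untreated jj libraries 9.49, 6.84, 6.75, 7.70 and 8.20 CPM. Apart from jj library 1, the untreated jj values lay within the untreated Nj range. The log2 difference was 0.06 (standard error 0.11, 95% interval -0.17 to 0.28, edgeR adjusted p = 0.913).

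With light, Hmox1 was 6.03, 6.34, 6.19, 7.45 and 7.17 CPM in Nj and 7.80, 6.39, 5.82, 7.35 and 7.18 CPM in jj pups. Of the 10 treated libraries, 4 were below every untreated library, and 4 of the 10 untreated libraries were above every treated library, the other libraries overlapping. The log2 difference was -0.18 in Nj and -0.17 in jj pups (standard error 0.11 in both). Averaged over genotypes it was -0.18 (standard error 0.08, 0.79- to 0.99-fold), with an unadjusted p of 0.0333 and an adjusted p of 0.159 in edgeR. Hmox1 rested on 114 to 201 reads per library, and its fitted coefficient of variation between libraries was 11.6%, against 5.59% for Hmox2.

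The level of Hmox1 relative to Hmox2 within a library does not depend on the scaling of libraries. The log2 ratio of their counts averaged -2.72 ± 0.22 and -2.59 ± 0.20 in untreated Nj and jj pups, against -2.96 ± 0.11 and -2.91 ± 0.13 in their treated counterparts (SD, n = 5). The ratio was lower with light by 0.32 in jj (exact permutation p = 0.0317, two-sided) and by 0.24 in Nj pups (exact permutation p = 0.0714). After adjustment over the 12 ratio tests both became 0.247, and 0.00794 was the smallest p that 5 against 5 libraries allow.

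**Figure D2:**
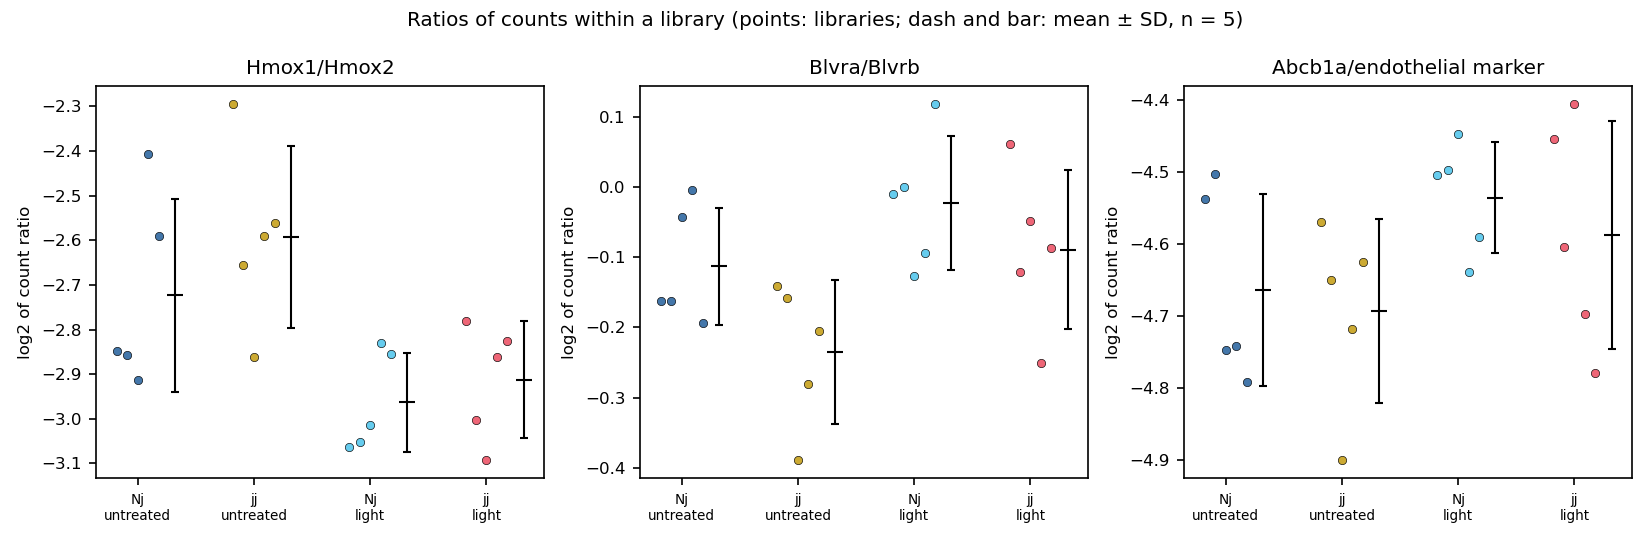
Log2 ratio of counts within a library for Hmox1/Hmox2, Blvra/Blvrb and Abcb1a over the summed endothelial markers (axes do not start at 0); points are libraries, dashes and bars mean ± SD of 5. The Hmox1/Hmox2 ratios of treated pups average -2.96 and -2.91, below the untreated means of -2.72 and -2.59, with overlapping ranges in both genotypes.

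Blvra encodes the major biliverdin reductase of adult tissue. Its level was 18.8, 18.4, 18.8, 17.7 and 17.7 CPM in untreated Nj and 18.3, 17.8, 19.5, 18.1 and 18.7 CPM in untreated jj pups, nearly the same range. In treated Nj pups it was 21.6, 19.8, 20.2, 18.4 and 21.2 CPM, with 4 of 5 libraries above every untreated Nj library. Treated jj pups held 20.6, 19.5, 19.4, 16.8 and 18.8 CPM and overlapped the untreated jj range on both sides.

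The log2 difference of Blvra with light was 0.15 in Nj (standard error 0.06, 95% interval 0.02 to 0.28, adjusted p = 0.18 in edgeR) and 0.04 in jj pups (adjusted p = 0.819). The 2 effects were not shown to differ, since the interaction of -0.11 had a 95% interval from -0.29 to 0.07. Averaged over genotypes, the difference was 0.10 (standard error 0.04, edgeR adjusted p = 0.173).

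Blvrb encodes the reductase also known as flavin reductase, which is abundant in red blood cells. Its untreated Nj levels were 21.0, 20.6, 19.3, 17.7 and 20.2 CPM, and its untreated jj levels 20.2, 19.9, 25.5, 22.0 and 21.6 CPM. The highest value of all 20 libraries was that of untreated jj library 3, which also held the most Ttr (9662 CPM), and 3 of 5 untreated jj libraries were above every untreated Nj library. The log2 difference was 0.14 (standard error 0.07), with an unadjusted p of 0.0488 and an adjusted p of 0.775 in edgeR. It was 0.08 without the libraries rich in Ttr. For unadjusted p under 0.05 in this comparison the background was 6.36% of all genes.

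In treated pups Blvrb lay between 19.6 and 22.1 CPM in Nj and between 19.8 and 21.2 CPM in jj libraries, and the jj range lay inside the Nj range. The interaction of genotype and light was -0.17 on the log2 scale (standard error 0.10, unadjusted p = 0.0925, adjusted p = 1 in edgeR), the largest interaction in size among the 7 genes. The markers of red blood cells varied within each group, from 625 to 902 CPM in untreated and 496 to 727 CPM in treated Nj pups, and from 414 to 1011 CPM in untreated and 538 to 931 CPM in treated jj pups. Of the 8 rows of that list tested in edgeR, 0 were called in any comparison, and at most 1 had an unadjusted p under 0.05. The part of red blood cells in Blvrb was not tested. Relative to each other, the log2 Blvra/Blvrb ratio was higher with light in jj pups by 0.15 (exact permutation p = 0.0635, adjusted p = 0.247 over the 12 ratio tests).

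Ugt1a5 was the member with the largest genotype difference, at the lowest level of the 7 genes in reads (23 to 96 per library). Untreated Nj libraries held 2.69, 2.98, 3.35, 2.99 and 2.02 CPM and untreated jj libraries 2.48, 2.06, 2.28, 1.21 and 2.40 CPM. Of the untreated Nj libraries, 4 of 5 were above every untreated jj library, and Nj library 5 was below 4 of them. Treated Nj libraries held 3.17, 4.14, 2.43, 3.10 and 4.59 CPM and treated jj libraries 1.88, 2.81, 2.19, 3.03 and 2.96 CPM. Here too 4 of 5 Nj libraries were above every jj library. No member had ranges without overlap between the genotypes, against 1% of all genes in untreated and 1.2% in treated pups.

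In untreated pups the log2 difference of Ugt1a5 between jj and Nj was -0.42 (standard error 0.20, unadjusted p = 0.0516, adjusted p = 0.775 in edgeR), and in treated pups -0.44 (standard error 0.20, unadjusted p = 0.0365, adjusted p = 0.724). These contrasts share no library. Averaged over treatments the difference was -0.43 (standard error 0.14, 95% interval -0.72 to -0.14), or 0.61- to 0.91-fold. Its unadjusted p was 0.00611, and 1.45% of all genes had a lower one, so the edgeR adjusted p was 0.408. Leaving out each library in turn gave -0.48 to -0.36, negative in 20 of 20 fits and called in 0. Without untreated jj library 4, the lowest of all, the untreated difference was -0.28, and without treated Nj library 5, the highest, the treated difference was -0.32. Ugt1a transcripts use alternative first exons joined to shared ones, and how reads in the shared exons were assigned to this row is not given in the sources used here. A search by symbol for other Ugt1a rows found none, so no other transcript of the locus could be analysed.

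With light, Ugt1a5 was higher by 0.32 in Nj (standard error 0.20) and by 0.29 in jj pups (standard error 0.21) on the log2 scale, with edgeR adjusted p of 0.427 and 0.573. The mean over genotypes was 0.31 (unadjusted p = 0.0429, adjusted p = 0.185). The mean was 0.17 with Ttr as a covariate and 0.05 without the libraries rich in Ttr. In Nj pups the difference was 0.27 and 0.12 under these settings, and in jj pups 0.07 and -0.01. The latter setting left out 3 of 5 treated jj libraries, 2 of 5 treated Nj libraries and 1 of 5 in each untreated group. The genotype difference, by contrast, was -0.45 under both settings.

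Across the 20 libraries Ugt1a5 had a Pearson r of 0.51 with the summed log2 level of the choroid plexus list, and of 0.64 after each group's mean was taken out. All these libraries share the tissue and the dissection. The 13 markers of that list summed to 53.5 to 4754 CPM in untreated and 64.7 to 4567 CPM in treated Nj pups, and to 52.3 to 10873 CPM in untreated and 111 to 8741 CPM in treated jj pups. Its 12 tested genes were all positive for the mean effect of light, with 0 called by edgeR, 0 at an unadjusted p under 0.05 and a median log2 difference of 0.72. Otx2 of that list was below the filter. The part of choroid plexus RNA in Ugt1a5 beyond these settings was not tested.

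**Figure D3:**
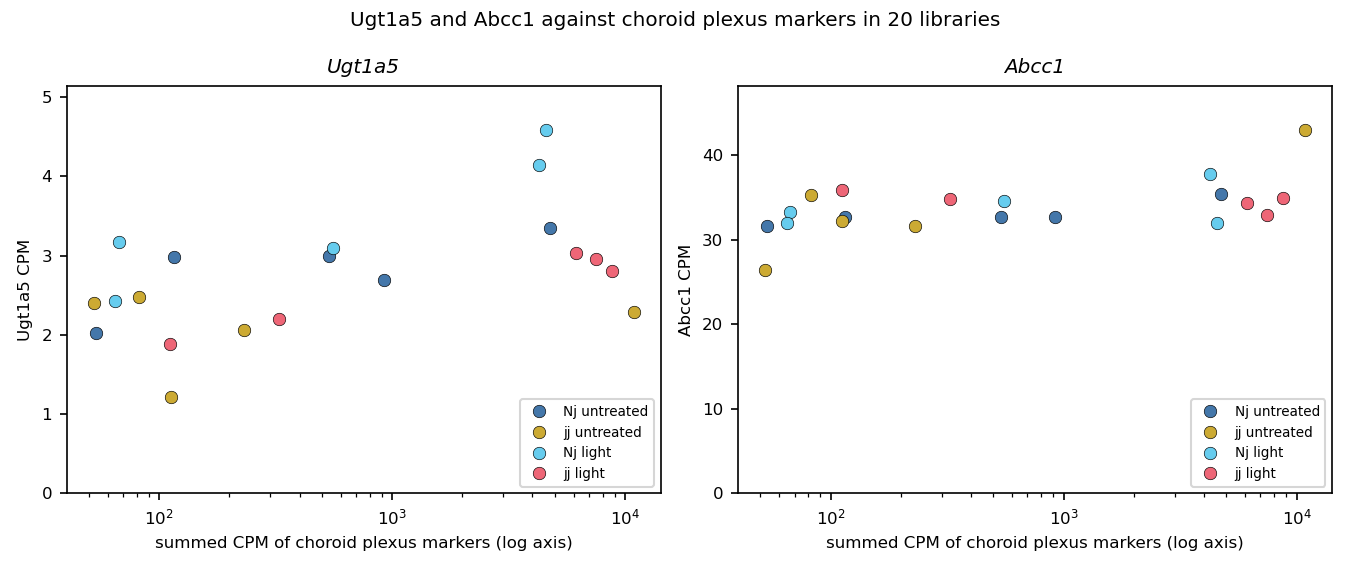
Ugt1a5 and Abcc1 in CPM (linear axis from 0) against the summed CPM of the choroid plexus markers (log axis) in 20 libraries, coloured by group. The highest Ugt1a5 value (4.59 CPM) and the highest Abcc1 value (43.0 CPM) both lie in libraries rich in these markers, and untreated jj libraries sit low for Ugt1a5 along the axis.

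Abcc1 was at nearly the same mean in all 4 groups, 33.0 ± 1.45 (untreated) and 33.9 ± 2.42 CPM (treated) in Nj pups, and 33.7 ± 6.09 (untreated) and 34.6 ± 1.07 CPM (treated) in jj pups (SD, n = 5). Single untreated jj libraries ranged more widely, at 35.3, 31.6, 43.0, 32.3 and 26.5 CPM. The highest and the lowest of all 20 libraries were both in that group, jj library 3 (the one with the most Ttr) and jj library 5 (the one with the lowest choroid plexus sum). The Pearson r of Abcc1 with the choroid plexus list was 0.53 over the 20 libraries, and 0.52 after group means were taken out. Other lists came close to the latter value, with 0.48 for the meninges and red blood cell lists and 0.43 for the endothelial and the microglia and macrophage lists. The neuronal and astrocyte lists went the other way, at -0.47 and -0.30. Log2 differences lay between 0.03 and 0.04 in the 4 comparisons of 2 groups, with 95% intervals no wider than -0.15 to 0.21 and edgeR adjusted p between 0.857 and 0.947.

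Abcb1a, the vessel pump, differed between groups by less than its spread. Nj pups held 31.4, 31.2, 27.2, 26.9 and 25.6 CPM without light and 29.3, 31.1, 30.8, 31.6 and 30.02 CPM with it. In jj pups it was 32.2, 29.8, 25.2, 28.4 and 27.1 CPM without light and 31.3, 28.6, 32.5, 28.6 and 25.9 CPM with it. The treated Nj values were the tightest (SD 0.93 CPM) and lay mostly within the upper part of the other ranges. The log2 difference between genotypes was 0.00 in untreated pups (95% interval -0.15 to 0.15) and -0.06 in treated pups (95% interval -0.21 to 0.09). With light it was 0.10 in Nj and 0.04 in jj pups, with edgeR adjusted p of 0.501 and 0.854. Reads of Abcb1a may be shared with its close paralog Abcb1b, which has no row under that symbol in the counts. The level of Abcb1a is uncertain in that respect.

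Relative to the summed counts of 16 endothelial markers, the log2 level of Abcb1a averaged -4.66 ± 0.13 without and -4.54 ± 0.08 with light in Nj pups, and -4.69 ± 0.13 and -4.59 ± 0.16 in jj pups (SD, n = 5). None of the 4 differences passed (smallest exact permutation p = 0.0952, adjusted p = 0.247, for light in Nj). The endothelial list summed to 665 to 788 CPM over all libraries. Of its 16 tested genes 0 were called by edgeR in the 4 comparisons of 2 groups, where 1 to 3 had an unadjusted p under 0.05, and 2 were lower for the mean effect of light. Across the 20 libraries Abcb1a had a Pearson r of 0.00 with the endothelial sum, 0.65 with the astrocyte sum and 0.54 with the neuronal sum. These are descriptions over libraries of 1 tissue.

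**Figure D4:**
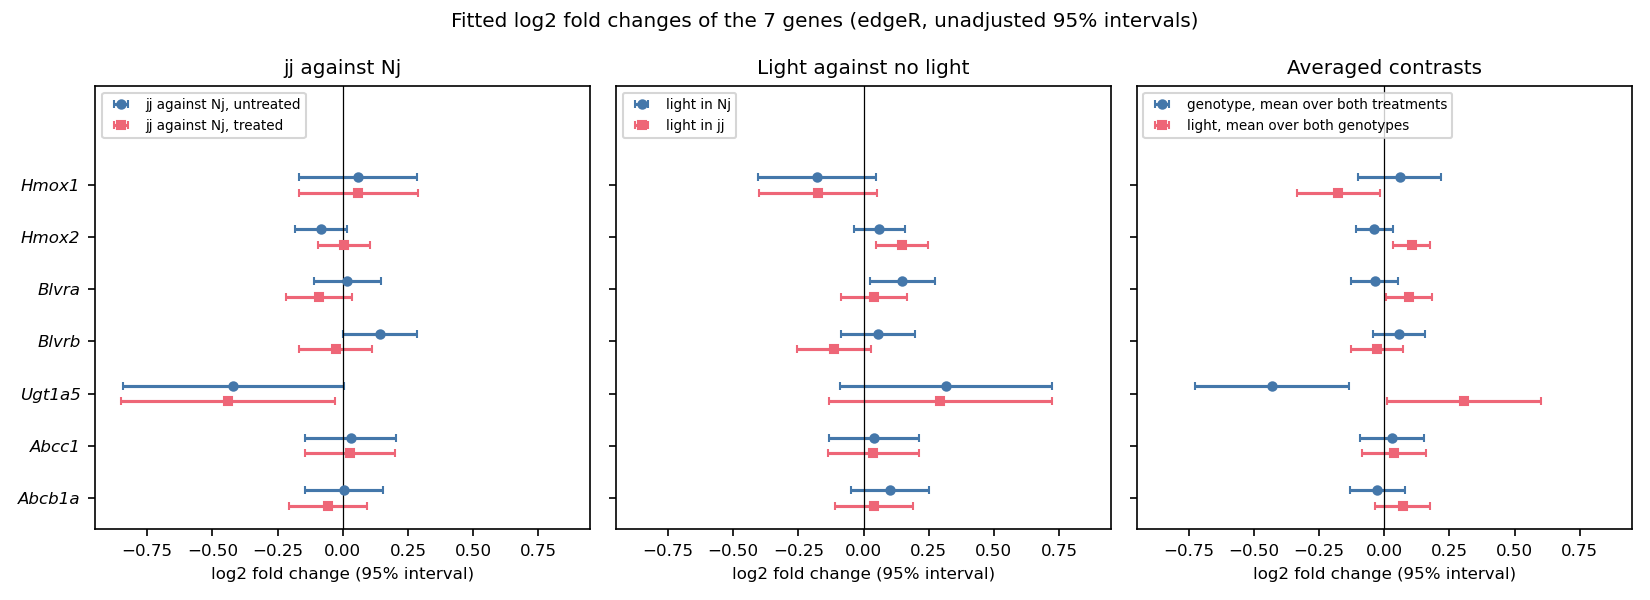
Fitted log2 fold changes of the 7 genes with unadjusted 95% intervals, for jj against Nj (left), light against no light (middle) and the averaged contrasts (right); 0 means no difference. Intervals are widest for Ugt1a5, whose mean genotype difference is -0.43, and the Hmox2 light mean is 0.10.

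Pearson r between pairs of them over the 20 libraries ran from -0.48 (Hmox1 with Blvra) to 0.38 (Hmox2 with Ugt1a5). After each group's mean was taken out, it ran from -0.45 (Hmox1 with Blvrb) to 0.51 (Hmox2 with Blvrb, 0.08 before). The genes most like each member were taken as the 3 with the highest r among 12209 genes. Hmox1 was nearest to Cmtm3 (r = 0.81), Farsa (0.74) and Hgh1 (0.74), and Hmox2 to Plpp1 (0.83), Nfam1 (0.81) and Pgam1 (0.74). Blvra was nearest to Ufsp2 (0.75), Arpc3 (0.74) and Stk32a (0.73), and Blvrb to Naa10 (0.84), Cops9 (0.76) and Scamp4 (0.75). For Ugt1a5 the nearest were Cd59 (0.73), Mettl18 (0.72) and Gla (0.71), for Abcc1 Glb1l (0.76) and Sipa1 (0.74), and for Abcb1a Cryzl1 (0.87), Epb41l3 (0.85) and Dynll1 (0.83). No member was among the nearest genes of another. Spearman (rank) correlations of these pairs ran from 0.40 (Blvrb with Cops9) to 0.85 (Abcb1a with Cryzl1). For Abcc1 they were 0.50 with Glb1l and 0.44 with Sipa1.

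Around these 7 genes, 5 lists of the wider pathway were read: control of heme breakdown, uptake and carriage of heme and hemoglobin, iron released from heme, conjugation and oxidation, and transport and cell binding. Of their 53 tested rows, 6 passed for the mean effect of light (2 higher and 4 lower, or 11.3% against 10.1% of all genes), 1 passed in Nj alone and 0 in jj alone, and 0 passed between genotypes or for the interaction. Without adjustment, edgeR p was under 0.05 in 16 of the 53 for the mean effect of light (24.6% of all genes), in 10 for light in Nj (18.1%) and in 9 for light in jj (13%). Between genotypes it was so in 2 untreated (6.36%), in 5 treated (6.62%) and in 6 for the mean (11.2%), and for the interaction in 1 (3.41%). The share for light was thus near that of all genes. The median log2 difference of the 53 rows with light was -0.02.

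Among genes controlling heme breakdown, 3 of 10 passed. Por encodes the reductase that hands electrons to heme oxygenase. It fell by 0.11 on the log2 scale (edgeR adjusted p = 0.0495), from means of 94.1 to 84.8 CPM in Nj and 92.0 to 87.3 CPM in jj pups. Of the 20 refits that each omitted 1 library, 16 lost this call, as did the fit without the libraries rich in Ttr (adjusted p = 0.196, log2 difference -0.09). Bach2, a heme-sensing repressor of the same family as the Hmox1 repressor Bach1, fell by 0.16 (adjusted p = 0.0203), from 24.2 to 22.7 CPM in Nj and from 26.1 to 22.1 CPM in jj pups. Nr1d1, a heme-binding repressor of the circadian clock, rose by 0.24 (adjusted p = 0.0177), from 18.1 to 21.6 CPM in Nj and from 19.9 to 23.3 CPM in jj pups. Calls of Bach2 and Nr1d1 were lost without the libraries rich in Ttr (adjusted p = 0.0832 and 0.2), where their log2 differences were -0.18 and 0.20. Both calls, and that of Por (edgeR adjusted p = 0.0497), were kept with Ttr as a covariate in all 20 libraries. The Bach2 call was also lost without untreated Nj library 4 (adjusted p = 0.062).

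Of the genes of iron released from heme, 1 of 12 passed. Aco1 encodes iron regulatory protein 1, which binds messenger RNAs when iron is scarce. Its level was 108.9 to 116.8 CPM in untreated and 94.6 to 104.4 CPM in treated Nj pups, and 108.3 to 112.3 CPM in untreated and 95.9 to 105.6 CPM in treated jj pups. All 10 treated libraries were below all 10 untreated ones, a separation that 0.478% of all genes showed over both genotypes. Aco1 fell by 0.17 in Nj (edgeR adjusted p = 0.014) and by 0.15 for the mean over genotypes (edgeR adjusted p = 0.00112), and the latter call was kept in 20 of 20 fits without a library. The former was lost without the libraries rich in Ttr (adjusted p = 0.0828), at a log2 difference of -0.16. It was kept with Ttr as a covariate (edgeR adjusted p = 0.0142).

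Uptake and carriage of heme had 1 of 10 tested genes past the threshold. Lrp1, the receptor for the heme carrier hemopexin, fell by 0.19 (edgeR adjusted p = 0.0101), from 839 to 720 CPM in Nj and from 847 to 756 CPM in jj pups. This call was lost without the 7 libraries rich in Ttr (adjusted p = 0.115), at a log2 difference of -0.19, and kept with Ttr as a covariate. Among conjugating and oxidising enzymes 1 of 4 tested genes passed. Ugt8 makes the galactolipids of myelin and belongs to the UDP-glycosyltransferase family without conjugating bilirubin. It rose by 0.31 (edgeR adjusted p = 0.00472), from 16.6 to 19.8 CPM in Nj and from 15.7 to 20.1 CPM in jj pups. Cyp1a1 and Cyp1a2, oxidases that can break down bilirubin, were below the filter. Of 17 tested genes of transport and cell binding, which include further Abcc pumps, Slco carriers and fatty acid binding proteins, 0 passed in edgeR in any comparison, and 0 to 3 had an unadjusted p under 0.05.

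**Figure D5:**
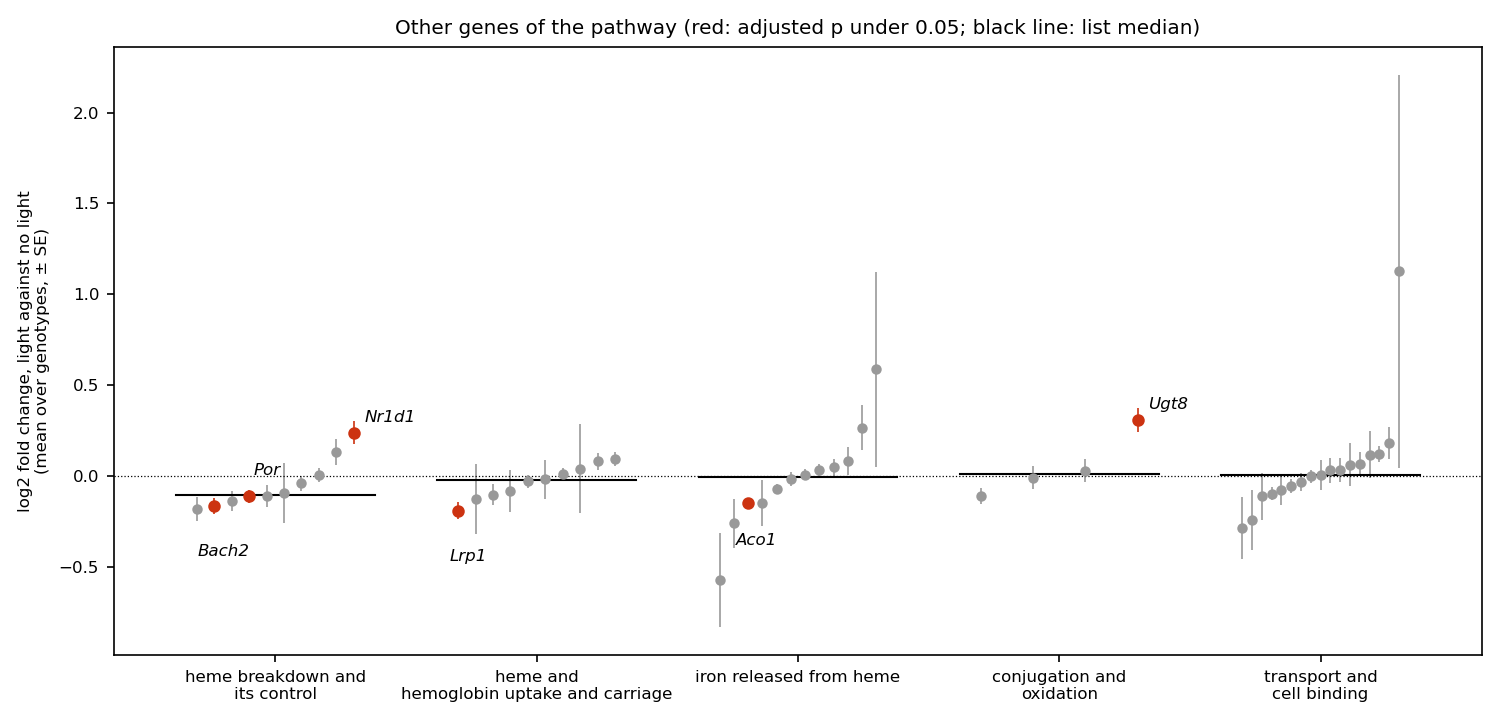
Log2 fold change with light, averaged over genotypes, of the other pathway genes in 5 lists (points ± standard error; red, adjusted p under 0.05 in edgeR; black lines, list medians). Of 53 points 6 are red, with Ugt8 at 0.31 and Nr1d1 at 0.24 above 0 and Lrp1, Bach2, Aco1 and Por below it.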

How the data were processed

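The deposited table holds raw read counts per gene, made by the authors and not normalised. Per the submitters' processing notes, FastQC, TopHat2 2.0.13, Subread and edgeR were used. A mouse build is named there although the identifiers are of rat genes, so the rat build and the strand setting are not given in the sources used here and no coordinates are printed. The design text gives 6 untreated pups in one place and 5 per group in another, and 5 per group were analysed.

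Counts were filtered with filterByExpr by group, scaled by TMM and fitted in edgeR 4.0.16 (limma 3.58.1, R 4.3.3) with 1 mean for each of the 4 groups, robust quasi-likelihood and legacy estimates. Tests were two-sided F-tests adjusted by Benjamini-Hochberg over 15272 genes. Ratios were tested by exact permutation. Alternatives were DESeq2 1.42.0, its size factors, no filter, the compared groups alone, prefix J15 alone, Ttr above 1000 CPM left out or Ttr as a covariate, and each library left out. Y-linked expression as a covariate was chosen after seeing the data. Its marker Kdm5d was at 34.8 to 42.3 CPM in untreated Nj libraries 1 and 5, untreated jj 3 and 5, treated Nj 4 and treated jj 3 and 5. It was at most 0.16 CPM in the other libraries, so every group mixes libraries with and without it. The code was tested on simulated data.

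The members, the pathway lists and the marker lists were chosen with earlier results of these data known. All members were named, with every pathway gene past the threshold (at most 4 per list and contrast) and the 3 genes most like each member (average log2 CPM of at least 1), except 1 gene that is not reported here. Library numbers follow accession order and pair nothing.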

Additional observations from a re-analysis of the deposited data

Results flagged for a closer look

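In 2 of the 40 sets of 5 libraries examined, 1 library stood far from the other 4 by Dixon's criterion of 0.71, and chance gives about 1 in 20. Abcc1 was 35.5 CPM in untreated Nj library 3, where the other libraries of the group lay between 31.6 and 32.7 CPM. Blvrb was 21.2 CPM in treated jj library 2, where the others lay between 19.8 and 20.1 CPM. Both libraries were among the 7 with Ttr above 1000 CPM.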

How the results depend on the processing

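No alternative turned the direction of the Hmox2 or Hmox1 light difference averaged over genotypes, or of the Ugt1a5 genotype difference, which DESeq2's own filter left untested. Of the member log2 changes under another setting (libraries left out singly aside), 328 kept their direction and side of the threshold, 4 passed it and 23 turned. The number of members called for the mean effect of light went from 0 to 1 (Hmox2) with DESeq2 size factors, the DESeq2 Wald test, prefix J15 alone and Y-linked expression as a covariate, and was 0 to 1 when libraries were left out singly. In the 6 other contrasts it stayed at 0 under every setting run. The number of pathway genes called was 6, and 2 without the libraries rich in Ttr (4 to 6 with libraries left out singly). Por was also not called with no count filter (adjusted p = 0.0627), prefix J15 alone (0.0523) and Y-linked expression as a covariate (0.0614). The cause of each change was not tested.

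Over all genes, light in jj was called in 25 genes, against 272 with the DESeq2 Wald test, 14 with its size factors, 3 with the compared groups alone, 2 with Ttr as a covariate, 13 with the Y-linked covariate and 0 without the libraries rich in Ttr. Light in Nj was called in 611 genes, against 980 with DESeq2, 743 with Ttr as a covariate and 112 without those libraries. The mean light effect was called in 1541 genes, against 1944 with DESeq2, 1669 with Ttr as a covariate and 424 without those libraries.

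The log2 values that turned were all of uncalled differences, of which Ugt1a5 with light in jj was 0.29 before. Without the libraries rich in Ttr these were, for Abcb1a, 0.025 (interaction), 0.045 (mean genotype effect) and 0.057 (treated jj against Nj). For Abcc1 they were 0.13 (interaction) and -0.042 (untreated jj against Nj), for Blvra 0.0034 (mean genotype effect), for Blvrb -0.0076 (mean genotype effect) and 0.0074 (mean light effect), and for Ugt1a5 -0.014 (light in jj). The ratio Abcb1a/endothelial gave 0.10 (treated) and 0.0024 (untreated jj against Nj), and Blvra/Blvrb 0.084 (treated jj against Nj). With prefix J15 alone, Abcb1a gave 0.021 (mean genotype effect), Abcc1 0.014 (interaction), Blvrb 0.0017 (mean light effect) and Abcb1a/endothelial 0.067 (untreated jj against Nj). With Ttr as a covariate, Abcb1a gave -0.0068 (untreated jj against Nj) and Abcc1 -0.0135 (treated jj against Nj), -0.029 (light in jj) and -0.00072 (mean light effect). Untreated jj against Nj in Abcb1a was -9.99e-05 with size factors, -0.0016 with DESeq2 and -0.0018 with no filter, and the Abcc1 interaction was 0.00295, 0.0032 and 0.0025. Hmox2 in treated jj against Nj was -0.00455 with the Y-linked covariate.

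With libraries left out singly, the values that turned spanned -0.044 to 0.047 for Abcb1a (untreated jj against Nj), and for Abcc1 -0.0755 to 0.10 (interaction), -0.0193 to 0.070 (mean genotype effect), -0.070 to 0.11 (untreated jj against Nj), -0.030 to 0.14 (light in jj) and -0.0016 to 0.072 (light in Nj). They spanned -0.045 to 0.0034 (treated jj against Nj) and -0.042 to 0.0054 (mean light effect) for Blvrb, -0.0446 to 0.083 (interaction) and -0.023 to 0.11 (untreated jj against Nj) for Hmox1, -0.0047 to 0.0205 (treated jj against Nj) for Hmox2, -0.16 to 0.10 (interaction) for Ugt1a5 and -0.061 to 0.023 (untreated jj against Nj) for Abcb1a/endothelial. No paired analysis was possible because library numbers follow accession order and link no pups across groups.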
